A study of Mus musculus with 6 samples.

Results

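The genes described here lie on the stretch of mouse chromosome 1 around Ing5, from Ackr3 and Cops8 on one side to Pdcd1 just beyond Ing5 on the other. The list held 35 genes of this stretch and left out 32 other rows that lie between its outermost genes, which are described separately. Its rule used no measured value, though the list was chosen with earlier results of these data known. All 35 were found among the 37991 Ensembl gene IDs of the count tables. RNA was sequenced from 6 livers of FVB mice aged 84 days, 3 of genotype Ing5 +/+ (WT) and 3 of genotype Ing5 MommeD48/+ (Het), which carry 1 mutant copy of Ing5 from a screen for modifiers of transgene silencing. The labels name no other allele, transgene or treatment, do not say what kind of mutation MommeD48 is, and do not state whether the 6 livers are from 6 mice, so the p-values reflect spread between these samples that may be technical. In bulk liver, fewer cells of a type and less RNA per cell cannot be told apart.

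The Ing5 protein reads histone H3 methylation through a PHD finger and is a subunit of histone acetyltransferase complexes. An allele recovered from a mutagenesis screen is inherited together with the chromosome on either side of it, so the neighbouring genes of carriers can hold linked sequence changes. In liver this stretch is best known for Agxt, the hepatocyte gene of alanine-glyoxylate aminotransferase, which removes glyoxylate in the peroxisome and so limits the formation of oxalate. Other genes of the stretch serve most cells, such as the RNA-binding protein vigilin (Hdlbp), thymidylate kinase (Dtymk) and the autophagy protease Atg4b. Some belong to cells other than hepatocytes, such as Kif1a of neurons and Pdcd1 (PD-1) of lymphocytes.

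Total counts per library ranged from 19840541 to 22041117, and the 35 genes together took 0.118% to 0.140% of them. Levels are given as CPM, a gene's count relative to the normalised library size, and differences as log2 fold changes, Het over WT, each with a standard error (SE). A gene with no reads may still have a true level of up to 3 counts, which is 0.136 to 0.154 CPM in these libraries and covers counting error only. The tissue label was borne out by its markers: 5 of 6 listed hepatocyte genes summed to 72697 to 95235 CPM. The other, Tf, matched no symbol and was left out. The livers also differed in acute-phase genes, which hepatocytes induce in inflammation. The summed level of 9 such genes was 15438, 27940 and 7657 CPM in WT replicates 1 to 3 and 12821, 8637 and 7966 CPM in Het replicates 1 to 3, so WT replicates 1 and 2 and Het replicate 1 were higher than the other 3. All 9 were detected, the fitted log2 fold change was above 0 for 0 of the 9, and 0 passed the test given below.

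No gene of the stretch could be called different between the genotypes. Of the 35 genes, 26 had enough counts to be tested and 9 did not. The test was edgeR's quasi-likelihood F test, adjusted by Benjamini-Hochberg over 12631 genes, and 0 of the 26 had an adjusted p under 0.05, against 0% of all genes tested. With DESeq2 0 of the 26 passed, against 0.103% of the genes with an adjusted p, and with limma-voom 0 of the 26 passed, against 0%. At an unadjusted p under 0.05 (edgeR) there was 1 gene, Bok, against 4.33% of all genes, and 1 of 26 is 3.85%. The log2 fold change was above 0 for 15 of the 26, against 50.3% of all genes, with a median of 0.0146 over the 26 and of 0.000881 over all 12631 genes. In 16 of the 26 the log2 fold change was smaller than 0.1 in size, and in 24 smaller than 0.2.

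**Figure D1:**
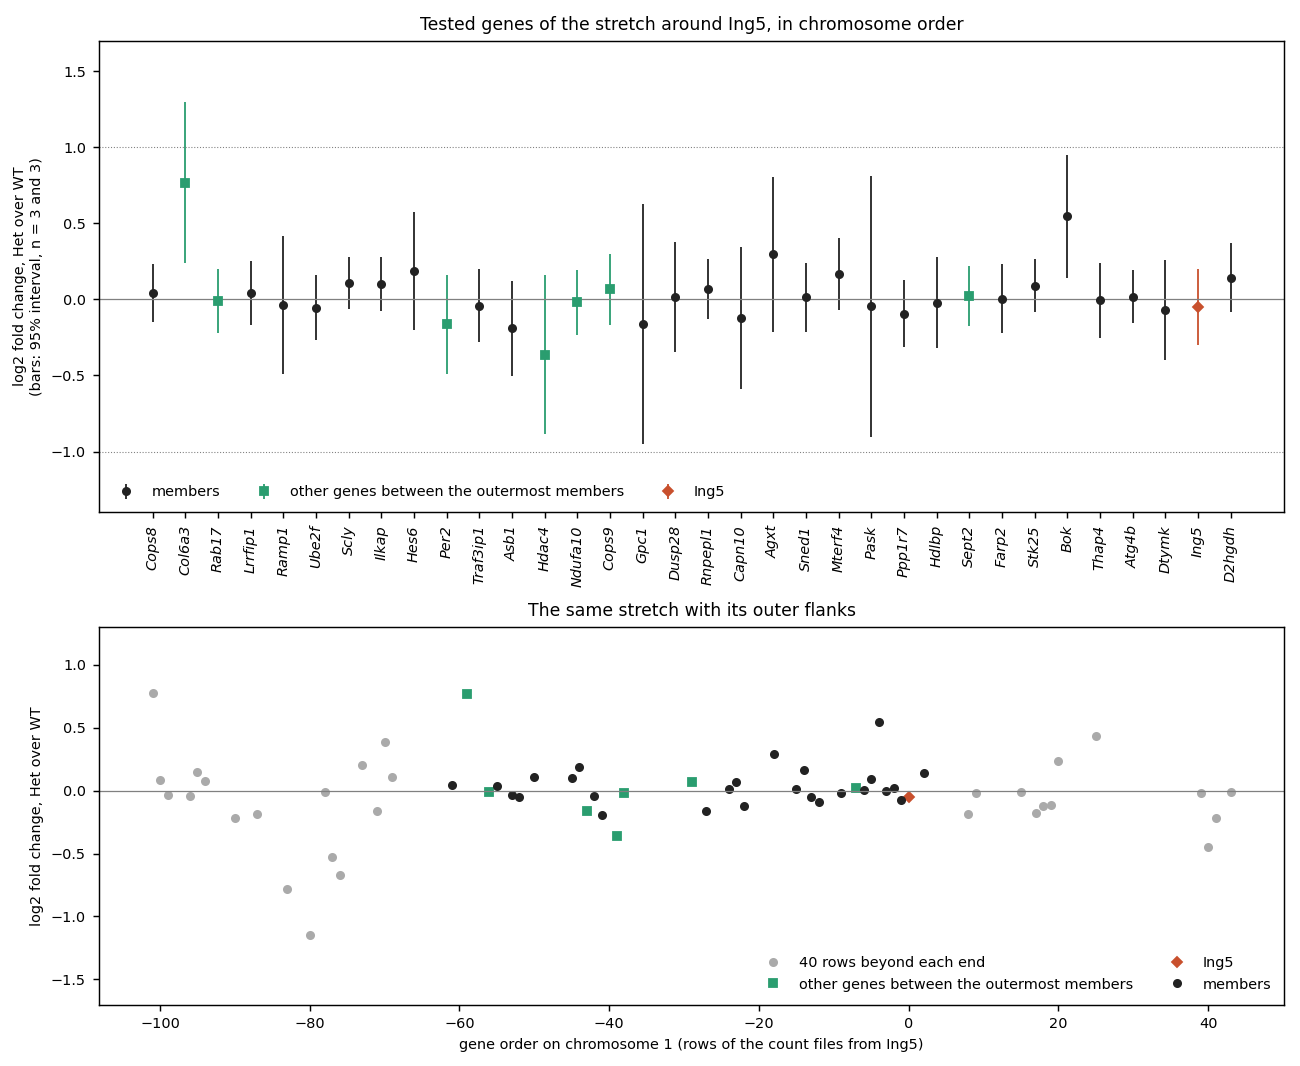
Upper panel: log2 fold change of Het over WT with its 95% interval (n = 3 and 3 livers) for the tested genes between the outermost members, in chromosome order, with dotted lines at a 2-fold change. Lower panel: the same values without intervals, plotted against gene order counted from Ing5 and extended by 40 rows of the count tables on each side. The intervals of 25 of the 26 members include 0, and that of Bok does not.

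The intervals give the range of changes that each gene's data allow. For 26 of the 26 tested genes both ends of the 95% interval were less than a 2-fold change from no change, against 90% of all genes. For each of the 26 the interval was therefore above a fold of 0.5, against 94.7% of all genes. That fold is the value for a gene with 1 of its 2 copies lost and no compensation. With a 1.5-fold change as the bound, both ends lay within it for 21 of the 26, against 71.1% of all genes. The other 5 were Gpc1, Capn10, Agxt, Pask and Bok.

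**Figure D2:**
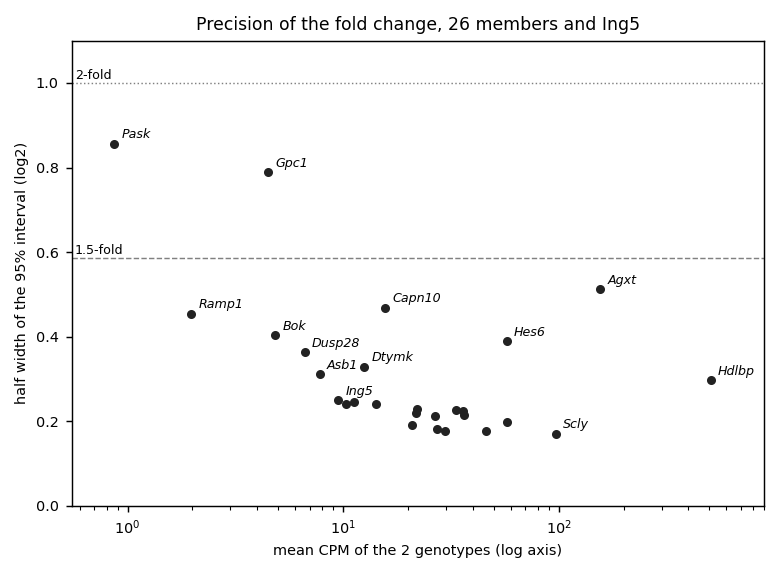
Distance from the log2 fold change to either end of its 95% interval (vertical axis) against the mean CPM of the 2 genotypes (horizontal log axis) for the 26 tested members and Ing5, with lines at the log2 of a 2-fold and a 1.5-fold change. This distance runs from 0.170 for Scly to 0.856 for Pask, and Gpc1, Capn10, Hes6 and Agxt lie above other genes of like CPM.

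Ing5 itself (ENSMUSG00000026283) had 8.77, 10.4 and 9.82 CPM in the WT livers and 9.23, 9.99 and 8.79 CPM in the Het livers, so the groups overlapped, and its log2 fold change was -0.05 (SE 0.11). On its near side lie the divergent pair Thap4 and Atg4b and then Dtymk, and on its far side D2hgdh. Dtymk (ENSMUSG00000026281), whose thymidylate kinase makes a precursor of the DNA building block dTTP, had 11.5, 11.5 and 15.6 CPM in WT against 12.8, 10.4 and 13.4 CPM in Het (log2 fold change -0.07, SE 0.15). Its highest liver was WT replicate 3, and the groups overlapped. D2hgdh (ENSMUSG00000073609), the mitochondrial enzyme that oxidises D-2-hydroxyglutarate, had 37.9, 30.0 and 35.2 CPM in WT against 35.4, 38.0 and 40.3 CPM in Het (log2 fold change 0.14, SE 0.10). The low value of WT replicate 2 stood apart from 5 values between 35.2 and 40.3. Atg4b, the protease that trims ATG8 proteins so that they can be attached to autophagosome membranes, was the steadiest gene of the list, at 30.2, 29.6 and 29.0 CPM in WT against 28.2, 30.1 and 31.6 CPM in Het. Its SD over the 6 livers was 3.92% of its mean, against a median of 9.27% over the 26 genes and 10.9% over all genes tested. Thap4, which encodes a THAP-domain protein, had 9.92, 12.3 and 11.6 CPM in WT against 10.8, 11.8 and 11.1 CPM in Het, with a log2 fold change of -0.01 (SE 0.11).

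Bok (ENSMUSG00000026278), a BCL2-family gene whose product can permeabilise the outer mitochondrial membrane, had the smallest p of the list. It lies 4 rows before Ing5 in gene order, next to Thap4. It was counted 71, 75 and 97 times in WT and 107, 131 and 124 times in Het, which is 3.42, 3.40 and 4.99 CPM against 5.12, 6.03 and 6.05 CPM. Each Het liver was above each WT liver, but WT replicate 3 lay closer to the Het livers than to the other WT livers. The log2 fold change was 0.55 (SE 0.18), a fold of 1.46 with a 95% interval of 1.104 to 1.930. The unadjusted p was 0.0131 and the adjusted p 0.999758 (edgeR quasi-likelihood, Benjamini-Hochberg), so the difference did not pass. DESeq2 and limma-voom gave unadjusted p-values of 0.0148 and 0.0110 for Bok. Without WT replicate 1 the log2 fold change of Bok was 0.45. In that fit 0 of the 26 genes had an unadjusted p under 0.05 (edgeR), against 284 of all 12788 genes tested. Without WT replicate 3 the log2 fold change of Bok was 0.75, and 3 of the 26 were under 0.05, against 1384 of 12801. Without Het replicate 1 there were 2 of the 26, against 937 of 12779, so the counts over all genes moved in the same direction. The lowest Bok values were those of WT replicates 1 and 2, the livers with the highest acute-phase sums. Het replicate 1, whose sum was also high, had 5.12 CPM, above WT replicate 3 with the lowest sum (4.99 CPM). An edgeR fit added after the data were seen took the acute-phase score as a covariate. It gave Bok a log2 fold change of 0.35 (edgeR unadjusted p = 0.0498, Benjamini-Hochberg adjusted p = 0.999838). The score differed with genotype too, and its part in the Bok values was not tested. Scly was the other gene with each Het liver above each WT liver, so 2 of 26 tested genes (7.69%) were separated in this direction, against 4.72% of all genes, and 0 were separated in the other, against 4.28%.

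The promoters of these neighbours differ in CpG dinucleotides, and the 250-base sequences shown run from 26 CpGs for Ing5 to 2 for Agxt. How widely each gene is transcribed was not measured. Sequences are from RefSeq (GRCm38.p6, the C57BL/6J reference, so FVB may differ), run 5′ to 3′ on the gene's strand and end at the base before the transcription start, with each CpG in capitals. The first is the whole stretch between the divergent starts of Thap4 and Atg4b, chr1:93754839-93754904, 66 bases with 11 CpGs, shown on the + strand of Atg4b. The others are the 250 bases before Ing5 (chr1:93803715-93803964, + strand, 26 CpGs), Bok (chr1:93685325-93685574, + strand, 12 CpGs) and Agxt (chr1:93134990-93135239, + strand, 2 CpGs).
Thap4 and Atg4b shared: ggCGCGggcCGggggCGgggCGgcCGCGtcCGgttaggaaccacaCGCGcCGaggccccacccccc
Ing5: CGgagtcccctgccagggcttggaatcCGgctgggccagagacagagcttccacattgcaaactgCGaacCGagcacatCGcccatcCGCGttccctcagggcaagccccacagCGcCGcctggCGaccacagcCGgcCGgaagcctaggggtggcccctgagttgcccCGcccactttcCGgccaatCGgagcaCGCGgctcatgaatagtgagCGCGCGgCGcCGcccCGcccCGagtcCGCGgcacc
Bok: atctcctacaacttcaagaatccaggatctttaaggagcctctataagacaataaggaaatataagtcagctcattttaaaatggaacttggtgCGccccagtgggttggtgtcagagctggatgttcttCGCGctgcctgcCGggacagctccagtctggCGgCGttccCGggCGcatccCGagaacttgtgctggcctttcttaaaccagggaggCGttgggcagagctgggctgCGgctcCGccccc
Agxt: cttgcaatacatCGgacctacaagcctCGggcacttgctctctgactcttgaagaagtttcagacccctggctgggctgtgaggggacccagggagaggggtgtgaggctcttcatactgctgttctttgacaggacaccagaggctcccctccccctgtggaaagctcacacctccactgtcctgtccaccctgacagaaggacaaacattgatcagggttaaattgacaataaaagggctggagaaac

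A promoter entry was found for 33 of the 35 genes and not for Gpc1 or Ilkap. For members with several starts only the first entry was used, while the values over all windows count every start, so the sets are not fully alike. The CpG observed-to-expected ratio over the 250 bases had a median of 0.800 in the 24 tested genes with an entry and of 0.400 in the 9 untested genes, against 0.374 over all 32851 windows of the table. A ratio above 0.6, a usual bound for CpG islands, was found in 19 of the 24 tested and 2 of the 9 untested genes, the latter Kif1a and Twist2, against 33.95% of all windows. The 5 tested genes under it were Agxt (0.112, the lowest), Ramp1, Dusp28, D2hgdh and Hes6. The windows of the table were not limited to genes that passed the low-count filter, as the 24 did. Windows of all tested genes were not taken alone, so the values of the 24 are not read as particular to this stretch. These are descriptions of the reference sequence, with no test.

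Agxt (ENSMUSG00000026272) and 3 other genes varied between livers more than between genotypes. Per kilobase of exon Agxt had the highest level of the list, 91.9 ± 21.2 CPM per kilobase (SD, 6 livers), followed by Hdlbp at 44.8 ± 4.80, Hes6 at 31.8 ± 5.63 and Scly at 21.4 ± 1.03. Agxt had 123, 108 and 189 CPM in WT against 146, 176 and 195 CPM in Het. WT replicate 3 lay among the Het livers and the groups overlapped. Its log2 fold change of 0.30 (SE 0.22) had a 95% interval from -0.22 to 0.81 and did not pass (edgeR, Benjamini-Hochberg adjusted p = 0.999758). Its 2 lowest values were in WT replicates 1 and 2, which had the highest acute-phase sums, and its 3 highest in the livers with the lowest sums. In the fit that included the acute-phase score its log2 fold change was 0.04. The score itself differed with genotype, with fitted log2 fold changes above 0 for 0 of its 9 genes. Score and genotype therefore cannot be fully told apart. The part of the acute-phase state in the values of Agxt, Hes6, Gpc1 and Capn10 was not tested. The 5 hepatocyte markers summed to 73595, 72697 and 90455 CPM in WT against 95235, 80952 and 77009 CPM in Het. Most of each sum was Alb, at 58734 to 78832 CPM. All 5 markers had log2 fold changes above 0, 0 passed, and their part in the Agxt values was not tested. Leaving out WT replicate 3 gave 0.57 and leaving out WT replicate 2 gave 0.14.

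Hes6, a helix-loop-helix gene of the Hes family, had 48.8, 43.2 and 69.4 CPM in WT against 61.3, 55.7 and 66.4 CPM in Het. It too was lowest in WT replicates 1 and 2, and its log2 fold change was 0.19 (SE 0.17) with all livers, 0.41 without WT replicate 3 and 0.03 with the covariate. Gpc1, the gene of the cell-surface heparan sulfate proteoglycan glypican 1, ran the other way, with 5.68, 5.58 and 2.98 CPM in WT against 6.22, 2.85 and 3.71 CPM in Het. Its 3 high values belonged to the 3 livers with the high acute-phase sums, and its highest liver had 2.18 times the lowest. Capn10, a calpain protease gene, showed the same division, with 17.7, 18.0 and 13.4 CPM in WT against 19.9, 12.2 and 13.1 CPM in Het. For Agxt, Gpc1 and Capn10 the division was seen in these same data, and the share of all tested genes showing it was not counted. The log2 fold change was -0.16 (SE 0.34) for Gpc1 and -0.12 (SE 0.20) for Capn10, and with the covariate 0.29 and 0.12. Without Het replicate 1 these were -0.54 and -0.37, and without Het replicate 2 they were 0.06 and 0.01.

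**Figure D3:**
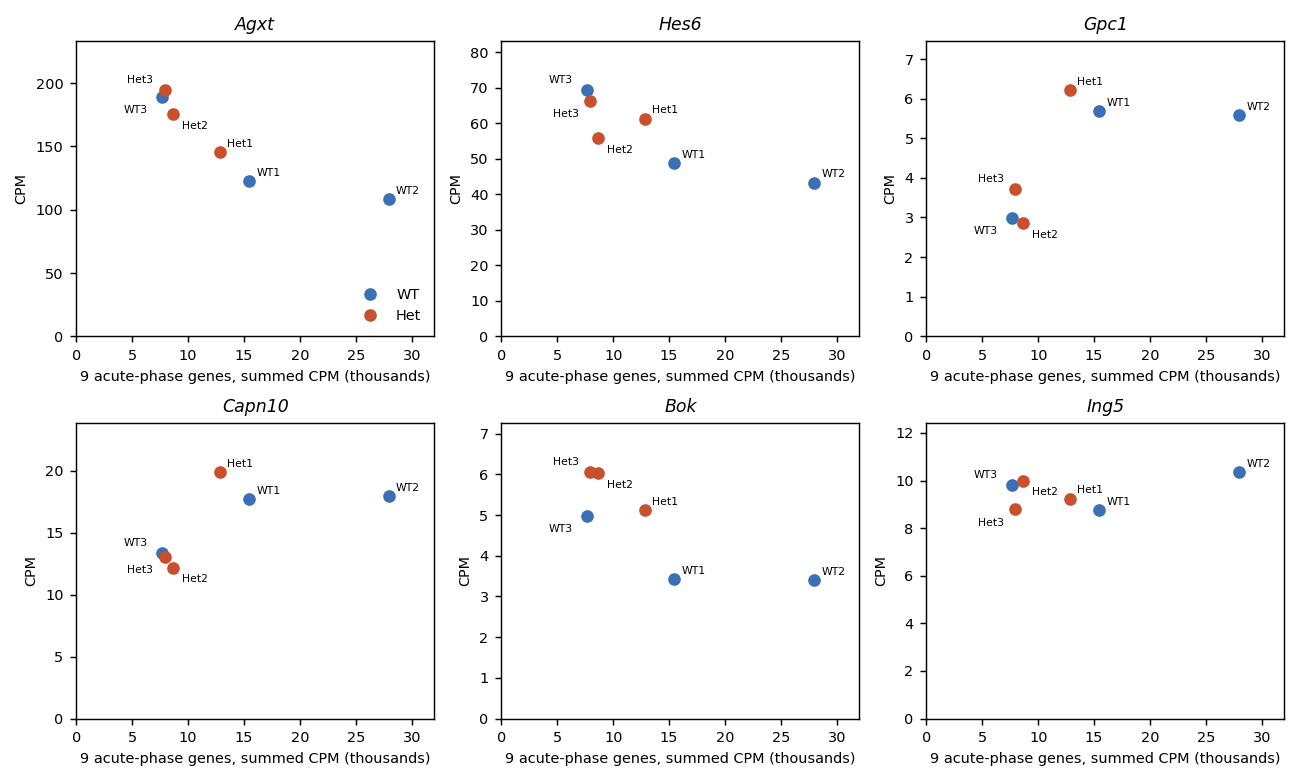
CPM of Agxt, Hes6, Gpc1, Capn10, Bok and Ing5 in each liver (vertical axes from 0) against the summed CPM of 9 acute-phase genes in the same liver, with axis labels divided by 1000. Agxt is highest in the 3 livers with the lowest sums and lowest in WT2, whose sum is 27940 CPM, while Gpc1 and Capn10 are higher in WT1, WT2 and Het1 than in the other 3 livers.

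The remaining enzymes of small-molecule metabolism and of protein modification did not pass the test. Scly, selenocysteine lyase, which recycles selenium, had 95.1, 93.0 and 92.7 CPM in WT against 105, 101 and 97.1 CPM in Het. Each Het liver was above each WT liver, and the log2 fold change of 0.11 (SE 0.08, edgeR unadjusted p = 0.190) did not pass. Ube2f, the conjugating enzyme that carries the ubiquitin-like protein NEDD8 to CUL5, had 37.9, 34.8 and 38.9 CPM in WT against 33.9, 33.3 and 40.4 CPM in Het. Cops8, a subunit of the COP9 signalosome, which removes NEDD8 from cullins, had 19.6, 21.3 and 20.8 CPM in WT against 20.04, 21.0 and 22.6 CPM in Het. The genotypes overlapped in both of these genes. Asb1, whose SOCS box recruits a cullin ligase, had the lowest log2 fold change of the list, -0.19 (SE 0.14), with 8.14, 7.31 and 9.51 CPM in WT against 7.22, 6.54 and 8.10 CPM in Het. Rnpepl1, an aminopeptidase gene, had 56.0 ± 4.51 and 58.7 ± 3.63 CPM (SD, n = 3 each).

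Kinases, phosphatases and their regulators did not differ beyond their spread. Stk25, a germinal-centre kinase linked to lipid storage in hepatocytes, had 42.4, 43.6 and 48.0 CPM in WT against 46.1, 48.6 and 47.9 CPM in Het, where WT replicate 3 lay inside the Het range (log2 fold change 0.09, SE 0.08). Ilkap, a PP2C-type phosphatase that binds integrin-linked kinase, had a log2 fold change of 0.10 (SE 0.08) at 26.4 ± 1.31 and 28.3 ± 1.19 CPM. Ppp1r7, the PP1 regulator SDS22, had 21.9, 22.4 and 22.9 CPM in WT against 23.2, 18.5 and 21.3 CPM in Het, so that Het replicates 1 and 2 bracketed the WT livers. The phosphatase gene Dusp28 had 6.60 ± 1.16 and 6.65 ± 0.936 CPM. Pask, a kinase with a PAS sensor domain, was close to the limit of the test, with 28, 16 and 11 counts in WT and 12, 23 and 19 counts in Het libraries. Its log2 fold change of -0.05 had an SE of 0.38, the largest of the list.

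Genes of RNA handling, mitochondrial translation, the cytoskeleton and the matrix overlapped between genotypes as well. Hdlbp, whose product vigilin binds RNA through KH domains, had the most counts of the list, at 540.3, 562 and 429 CPM in WT against 450.3, 516 and 543 CPM in Het. WT replicate 3 and Het replicate 1 were low, 1 of each genotype, and the log2 fold change was -0.02 (SE 0.13). Mterf4, which acts with a methyltransferase in assembly of the mitochondrial ribosome, had 11.7, 14.8 and 13.7 CPM in WT against 15.7, 14.5 and 15.03 CPM in Het. Its log2 fold change of 0.17 (SE 0.11) came mostly from the low WT replicate 1, without which it was 0.07. Sned1, an extracellular matrix glycoprotein gene, had nearly the same 3 values in both genotypes, 30.3, 33.1 and 36.2 CPM in WT against 30.3, 33.0 and 37.3 CPM in Het. Farp2, a gene whose product holds a FERM domain, had 21.9 ± 2.61 and 22.0 ± 1.09 CPM, and Lrrfip1, a gene whose product binds nucleic acids, 26.3 ± 1.29 and 27.0 ± 2.69 CPM. Traf3ip1, a component of intraflagellar transport in cilia, had 10.5 ± 0.434 and 10.2 ± 0.956 CPM. Ramp1, which makes the receptor for the neuropeptide CGRP together with the calcitonin receptor-like receptor, had 35 to 49 counts in the 6 libraries and a log2 fold change of -0.04 (SE 0.20).

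**Figure D4:**
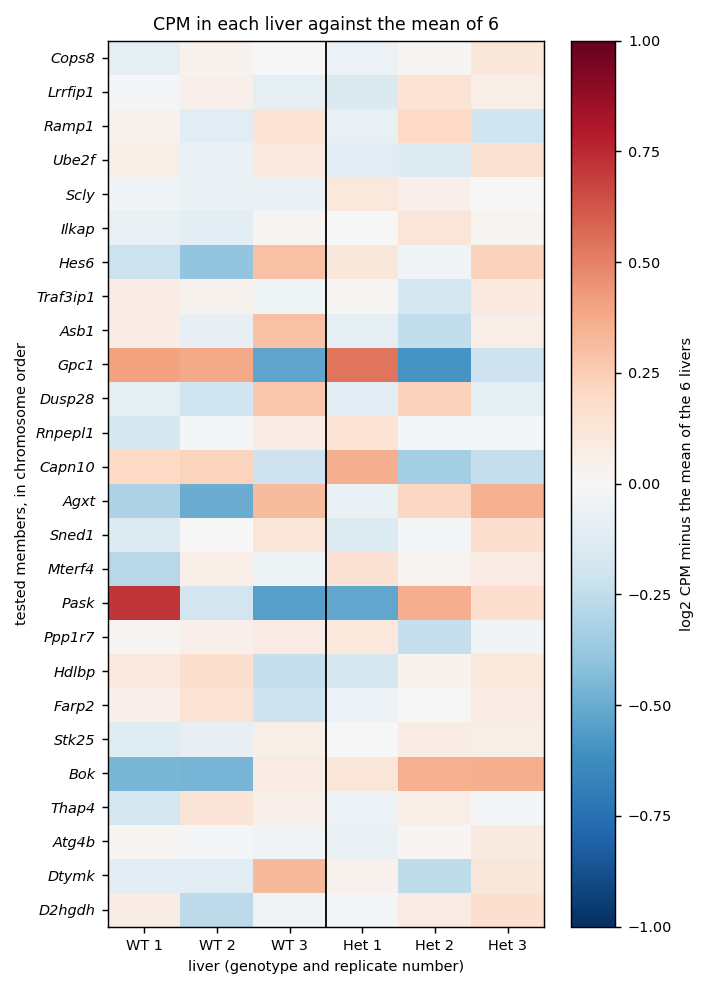
Heat map of log2 CPM, centred on the 6-liver mean, for the 26 tested members (rows, in chromosome order) in each liver (columns, WT left and Het right of the line). Most rows are pale; Gpc1, Pask, Agxt, Bok, Capn10 and Hes6 carry the strong colours, and for Gpc1 and Capn10 the red cells are WT 1, WT 2 and Het 1.

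The 9 untested genes were at or near 0. Aqp12, a pancreatic aquaporin, and Pdcd1 had 0 counts in all 6 libraries, which allows at most the floor given above. Twist2, a mesenchymal helix-loop-helix factor, had 0 or 1 count, as did Ano7, a gene of the TMEM16 family. Ankmy1 had 0 to 3 counts, the neuronal kinesin gene Kif1a 0 to 6, and Gpr35, a G protein-coupled receptor gene, 2 to 7. Mlph, the melanosome linker melanophilin, had 5 to 15 counts, and Ackr3, an atypical chemokine receptor, 9, 7 and 9 in WT and 9, 11 and 2 in Het libraries. No fold change is given for these. Of markers of the cells in which such genes are active, 6 of T and B lymphocytes summed to 2.25 to 5.15 CPM. The 4 pancreatic markers summed to 38.2 to 60.5 CPM, nearly all of it Cela1, with Prss1 and Cpa1 at 0. The 5 neuron and glia markers summed to 21.1 to 31.2 CPM, of which Syt1 made up 19.9 to 29.6 CPM, with Snap25 at 0.

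Between the outermost members lie 32 other rows of the count tables, 18 of them at 0 in all libraries, among them a run of olfactory receptor genes. Of the 7 that were tested 0 passed the edgeR test and 1, the collagen VI chain gene Col6a3, had an unadjusted p under 0.05 (14.3%, against 4.33% of all genes tested). Col6a3 (ENSMUSG00000048126), near Cops8 at the far end of the stretch from Ing5, had 7.71, 6.31 and 6.79 CPM in WT against 11.9, 15.6 and 7.91 CPM in Het. Each Het liver was above each WT liver, with Het replicate 3 close to the WT livers, and the log2 fold change was 0.77 (SE 0.23, edgeR unadjusted p = 0.0101, Benjamini-Hochberg adjusted p = 0.999758). Without Het replicate 2 it was 0.51 and without Het replicate 3 it was 0.99. Collagen VI is made by stellate cells and fibroblasts, whose 5 markers summed to 132, 99.5 and 156 CPM in WT against 137, 167 and 129 CPM in Het. Most of each sum was Dcn, at 70.3 to 137 CPM. Of the 5 markers 0 were at 0 and 3 had log2 fold changes above 0, and their part in the result was not tested. The other 6 were Rab17, Per2, Hdac4, Ndufa10, Cops9 and Sept2, with log2 fold changes from -0.36 (Hdac4, SE 0.23) to 0.07 (Cops9, SE 0.10). Among the 40 rows beyond each end, 17 genes were tested on the side of Ackr3 and 12 on the side of Pdcd1, and 0 passed. The unadjusted p (edgeR) was under 0.05 for 3 (17.6%) and 0 of these, against the same 4.33%. The 3 genes were named after their values were seen. Hjurp had a log2 fold change of -0.67 (SE 0.14) at 239 to 515 counts per library. Ugt1a2 (-1.14, SE 0.30) had only 8 to 21 counts and Sag (0.78, SE 0.30) 15 to 45 counts.

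Genes that work with members of the stretch were taken from 7 lists, and 0 genes of any list passed the edgeR test. Of 9 tested genes of glyoxylate and oxalate metabolism, the pathway of Agxt, 4 had higher and 5 lower values in Het livers (median log2 fold change -0.01), with 0.16 for Hao1, glycolate oxidase, and -0.08 for Ldha, lactate dehydrogenase. Of 7 tested genes of 2-hydroxyglutarate metabolism 3 were higher and 4 lower (median -0.01), with -0.15 for Idh1 and -0.01 for Etfdh. Of 13 genes of thymidine nucleotide supply 6 were higher and 7 lower (median -0.03), with 0.07 for Shmt1 and -0.11 for Shmt2. The 13 genes of the ATG4 and ATG8 list divided in the same way (median -0.03), with 0.17 for Gabarapl1 and -0.07 for Gabarap. Of 22 genes of the NEDD8 cycle and the COP9 signalosome 8 were higher and 14 lower (median -0.03), with -0.12 for Cul4a and -0.12 for Cops6. Uba3 and Nae1, the 2 subunits of the NEDD8-activating enzyme, had log2 fold changes of -0.07 and -0.06 with each Het liver below each WT liver, which held for 4.28% of all genes. They were named after their values were seen.

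In 2 lists 1 gene each had an unadjusted p under 0.05 (edgeR), and in the remaining lists no gene did. The share over all genes tested was 4.33%, and neither of the 2 genes passed the adjusted test. Of 7 PP1 genes 3 were higher and 4 lower (median -0.05), with 0.06 for Ppp1cb and -0.05 for Ppp1ca. The third catalytic subunit gene, Ppp1cc, had 47.3, 49.2 and 44.5 CPM in WT against 42.0, 41.5 and 39.6 CPM in Het (log2 fold change -0.20, SE 0.08, edgeR unadjusted p = 0.0276), and was named for its p. Of 9 tested BCL2-family genes 3 were higher and 6 lower (median -0.12), with 0.18 for Mcl1 and -0.12 for Bcl2l1. Bax, a pro-apoptotic relative of Bok, had 14.5, 16.6 and 14.3 CPM in WT against 13.5, 12.6 and 12.2 CPM in Het (log2 fold change -0.25, SE 0.10, edgeR unadjusted p = 0.0313). Bax and Bok thus had fold changes of opposite sign, and Bax was named for its p after the values were seen.

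Some of these genes share exonic bases with a neighbour on the opposite strand in GENCODE M21, so their reads cannot be told apart if counting ignored strand, which the sources used here do not give. Mterf4 and Sned1 share 1855 bases, Farp2 and Stk25 1013, Gpc1 and Ankmy1 977, and Pask and Ppp1r7 225. Ilkap shares 357 bases with Erfe, which had 0 counts, and Scly 159 with the antisense gene Gm17090. Bok, Agxt, Hes6, Capn10, Hdlbp, Thap4, Atg4b, Dtymk and D2hgdh share none with another gene of the count tables.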

How the data were processed

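The deposited values are raw whole-number counts per Ensembl gene ID, 1 table for each of the 6 livers. TopHat2 2.0.11, HTSeq 0.6.1, DESeq and mm9 are named, without role or order, per the submitters' processing notes. Annotation release and strand setting: not given in the sources used here. Symbols matched 32919 IDs and were missing for 5072.

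The deposited counts went into edgeR 4.0.16 (R 4.3.3): filterByExpr by genotype (12631 genes kept), TMM, and the robust quasi-likelihood test of Het against WT. P-values were adjusted by Benjamini-Hochberg over all tested genes, with a threshold of 0.05. The SE of a log2 fold change is its size over the square root of F, and 95% intervals follow from it. DESeq2 1.42.0 and limma 3.58.1 (voom) were alternatives. The fit was also run on simulated counts, in which every gene had the same relative spread beyond counting error. Those counts lack the acute-phase division between the livers, and no result here rests on that run. Pairs of libraries differed by a chi-square of 10.2 to 79.9 per degree of freedom, so none was a copy. The acute-phase score averages 9 genes' log2 CPM after centring each on the 6 livers.

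Gene order, exon overlaps and exonic lengths came from GENCODE M21 (GRCm38), another build than that of the files, so the only coordinates given are those of the RefSeq promoter windows on GRCm38.p6. All 35 members, Ing5, other genes of the stretch with an unadjusted p under 0.05 and the 2 most abundant genes of each partner list are named. Members and lists were chosen with earlier results of these data known. Ppp1cc, Bax, Uba3 and Nae1 were added after their values were seen, as were the 6 other tested genes of the stretch.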

Additional observations from a re-analysis of the deposited data

How the results depend on the processing

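In none of the 16 alternatives (14 planned, 2 added after the data were seen) did a tested gene of the stretch pass an adjusted p of 0.05 (0 of the members called in each). The count over all genes, 0 in the main fit, was 1 without a low-count filter and 13 with DESeq2, and ran from 0 to 17 with 1 library left out, 17 without WT replicate 3 and 10 without Het replicate 1. The median log2 fold change of the tested members ran from -0.00123 to 0.0683 with 1 library left out, the highest without Het replicate 1.

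With 1 library left out the log2 fold change changed sign for 15 of 28 genes: it ran from -0.00412 to 0.0828 for Cops8, -0.0194 to 0.119 for Lrrfip1, -0.159 to 0.0464 for Ramp1, -0.101 to 0.0311 for Traf3ip1, -0.540 to 0.0591 for Gpc1, -0.108 to 0.164 for Dusp28, -0.374 to 0.0105 for Capn10, -0.0686 to 0.0817 for Sned1, -0.270 to 0.388 for Pask, -0.132 to 0.0536 for Hdlbp, -0.0861 to 0.0780 for Farp2, -0.0948 to 0.0628 for Thap4, -0.0216 to 0.0601 for Atg4b, -0.149 to 0.0880 for Dtymk and -0.116 to 0.00771 for Ing5. In the fit with the acute-phase score the sign turned for Gpc1 (0.287), Dusp28 (-0.133), Capn10 (0.124), Sned1 (-0.0813), Hdlbp (0.0444) and Atg4b (-0.00181), and with limma-voom for Pask (0.00297). The cause was not tested.

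The replicate numbers pair nothing that the labels state: the deviations of same-numbered livers correlated at -0.0247, -0.0780 and 0.224, and not every liver correlated best with its own number. With the replicate number as a block 0 genes and 0 members passed, the median of the members was 0.0148, and 15 of 26 were above 0. In the block fit 602 genes, 2 of them members, had an unadjusted p under 0.05. The 9 untested genes had too few counts to pass the low-count filter.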
